A study of Bos taurus with 71 samples.

Results

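The rumen and the mid-jejunum of newborn Holstein bull calves were compared by RNA-Seq at birth (D0), before any feeding. The 3 rumen and the 3 jejunum libraries of D0 were chosen by the region and age in the sample labels, and they are 6 of the 71 libraries of the series. Each of the 3 calves gave 1 library per region, with the same animal number taken as the same calf. The calves received no treatment and carry no stated allele, and they were killed soon after delivery without colostrum. Rumen and jejunum of D7, from 5 other calves that had been fed colostrum and then milk, served as the later age. The D0 small intestine was not rinsed, unlike that of older calves, and how the rumen wall was sampled is not given in the sources used here. Each library is whole tissue from 1 animal of 1 sex, so the values are of mixed cells.

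The rumen is the largest forestomach of cattle. It is lined by a stratified squamous epithelium held together by desmosomes, lies on a thick muscle coat, and in the newborn does not yet ferment feed. The jejunum is lined by a single layer of columnar cells on villi, in which enterocytes with a brush border absorb fat and package it into lipoproteins, while goblet, Paneth and enteroendocrine cells secrete mucus, antimicrobial proteins and hormones. In newborn calves the small intestine also takes up whole proteins from colostrum.

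Values are CPM (counts per 1000000 mapped reads) that were deposited as whole numbers, so that 1 CPM is the smallest step and the depth of each library is unknown. Differences are rumen minus jejunum on the scale log2(CPM + 1), given with their standard error after ±, and are too small for genes near 0. Genes were called differentially expressed (DE) at FDR < 0.05 and fold change > 2 in limma. Where a gene was listed at 0 in all libraries of a region no fold change is given. Only 1776 of the 14174 genes tested could be given a symbol, 12.5%, and these symbols come from tables of immune-related or age-changing genes of the small intestine, so rumen genes are under-represented among the named genes.

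The labels were first checked against defining markers. Of 7 enterocyte markers, 5, 4 and 6 were at 0 in the rumen libraries of animals 1, 2 and 3 and none in the jejunum. Their summed level was 14, 315 and 14 CPM in the rumen against 24423, 15894 and 24172 CPM in the jejunum. The 7 markers of stratified or adhesive epithelium summed to 6021, 6140 and 3543 CPM in the rumen and to 930 to 1097 CPM in the jejunum. Each tissue carried the markers of its label.

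The rumen library of animal 2 stood apart from the others of its region. Its log2(CPM + 1) values correlated with those of rumen animals 1 and 3 at r of 0.893 and 0.876, across genes, where these animals correlated at 0.977 with each other and the jejunum libraries at 0.991 to 0.992. It had 13523 genes with at least 1 CPM, against 14746 and 14858 in the other rumen libraries and 14418 to 14693 in the jejunum. The 37 genes of collagens and fibrous matrix summed to 7362 CPM in this library, against 58241 and 60141 CPM in rumen animals 1 and 3 and 9471 to 10705 CPM in the jejunum. Its 18 smooth muscle genes summed to 3121 CPM, against 13934 and 8572 CPM. Its 16 genes of enteric nerve and glia summed to 87 CPM, against 309 and 436 CPM. The 18 genes of desmosomes and squamous epithelium were highest in it, at 9582 CPM against 7496 and 4907 CPM. The 13 identifiers of hemidesmosomes and epithelial basement membrane were lowest in it, at 1307 CPM against 3899 and 3472 CPM. This library was thus low in matrix, muscle and nerve transcripts, and its epithelial lists went in both directions. Whether the piece of rumen wall differed was not tested, and results that rest on this library are given with and without it.

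At birth 2853 genes, 20.1% of those tested, were called between the regions. The jejunum was higher for 1807 (12.7%) and the rumen for 1046 (7.38%). Genes with a symbol split further toward the jejunum, with 398 (22.4%) higher there and 105 (5.91%) higher in the rumen. Without the rumen library of animal 2, the calls were 2247 for the jejunum and 2461 for the rumen (15.9% and 17.4%, together 33.2%), so the excess of jejunum genes depended on this library. Of the calls made with all libraries, 1732 and 987 remained without it. Which region had more detected genes could not be told, at 14376 ± 741 in the rumen and 14600 ± 158 in the jejunum (SD, n = 3 each, p = 1.00 in an exact permutation test, two-sided, which cannot give less than 0.1). The 10 genes with most reads took 10.4%, 12.1% and 10.3% of all CPM in the rumen libraries and 7.64%, 8.14% and 8.63% in the jejunum libraries, without overlap (p = 0.1 in the same exact test).

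**Figure D1:**
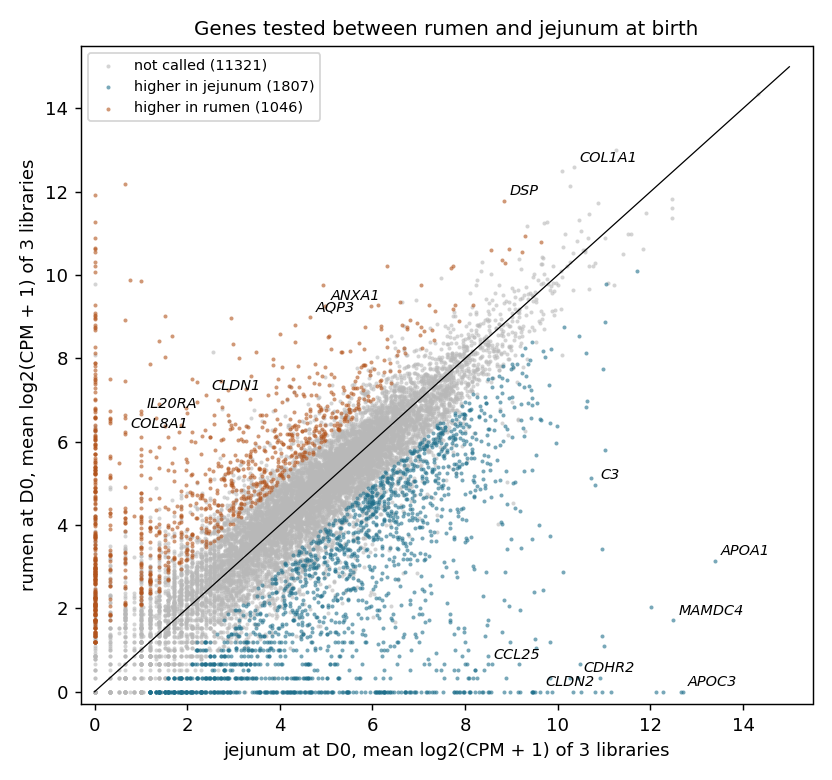
Mean log2(CPM + 1) of each tested gene over the 3 jejunum libraries (x axis) and the 3 rumen libraries (y axis) at D0, with genes called higher in the jejunum in blue, in the rumen in orange and not called in grey. The columns of points along both axes are genes listed at or near 0 in one region, and the collagen gene *COL1A1* lies above the diagonal without being called.

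Genes of lipid absorption and lipoprotein assembly were among the most divided between the regions. Of 22 such genes 11 were higher in the jejunum, 2 higher in the rumen and 9 not called. Their median difference was -2.37, and -1.36 over the 17 that were not at 0 in a whole region. The median was -0.03 over all genes tested and -0.38 over genes with a symbol, from which all lists were drawn. *APOC3* (ENSBTAG00000012398), an apolipoprotein that regulates the clearance of triglyceride-rich particles, was listed at 0 CPM in the rumen of animals 1, 2 and 3 and at 6983, 5870 and 7136 CPM in their jejunum (FDR = 2.76e-06). *APOA4* (ENSBTAG00000019770), which is carried on chylomicrons, was listed at 0 CPM in the rumen and at 8209, 4708 and 7110 CPM in the jejunum (FDR = 7.12e-06). *APOB* (ENSBTAG00000008505), the structural protein of chylomicrons, was again at 0 in all rumen libraries and reached 5732, 2339 and 6635 CPM in the jejunum (FDR = 3.47e-05). These genes were thus high in every newborn jejunum, before any milk had been taken in, and listed at 0 in every rumen. *APOA1*, the main protein of high-density lipoprotein, had 9, 2 and 22 CPM in the rumen and 12029, 6827 and 15273 CPM in the jejunum, a difference of -10.25 ± 0.78 (FDR = 5.70e-04). *SCARB1*, a lipoprotein receptor, differed by -3.45 ± 0.39 (FDR = 0.00223), and the lysosomal lipase *LIPA* by -3.36 ± 0.46 (FDR = 0.00466). In the other direction *PPARG*, a nuclear receptor that drives lipid storage and epithelial differentiation, had 54, 225 and 120 CPM in the rumen and 9, 5 and 4 CPM in the jejunum, a difference of 4.10 ± 0.57 (FDR = 0.00500). *AGPAT2*, an enzyme of phospholipid and triglyceride synthesis, was higher in the rumen too, at 2.89 ± 0.40 (FDR = 0.00498). The fatty acid transporter *CD36*, at 106, 10 and 648 CPM in the rumen and 564, 447 and 709 CPM in the jejunum, was not called (FDR = 0.260). The fatty acid synthase *FASN* was not called either, at 402, 117 and 405 CPM in the rumen and 129, 190 and 105 CPM in the jejunum (FDR = 0.284), and was called higher in the rumen without animal 2 (1.55 ± 0.27). In whole tissue, fewer cells of a type and less RNA per cell cannot be told apart, here and for every list that follows.

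Brush border and uptake genes were higher in the jejunum in 17 of 27 identifiers and in the rumen in none, with a median of -3.95 (-3.00 without the 4 members at 0 in a whole region). The brush border cadherins *CDHR2* and *CDH17* had 1248 to 1614 CPM and 1246 to 1608 CPM in the jejunum and no more than 1 CPM in any rumen library. Their differences were -10.09 ± 0.33 (FDR = 3.04e-05) and -9.82 ± 0.32 (FDR = 3.22e-05). Protein uptake by intestinal cells depends in part on cubilin and its partner amnionless, and both genes were at 0 in all rumen libraries. In the jejunum *CUBN* (ENSBTAG00000005072) had 217, 238 and 198 CPM (FDR = 1.73e-05) and *AMN* 619, 719 and 785 CPM (FDR = 7.38e-06). *MAMDC4* (ENSBTAG00000021550), which encodes endotubin, a protein of the apical endosomes of fetal and suckling enterocytes, had 8, 0 and 3 CPM in the rumen and 6138, 5993 and 5085 CPM in the jejunum, a difference of -10.76 ± 0.78 (FDR = 4.98e-04). It was 1 of the 4 named genes with the largest mean CPM in the jejunum, beside *APOA1*, *APOA4* and *APOC3*, which is an order by reads and not by transcripts, because CPM is not corrected for length. The peptidases followed, with *MME* at -7.35 ± 0.83 (FDR = 0.00238) and *ACE* at -5.33 ± 0.88 (FDR = 0.00906). *SLC9A3R1*, a scaffold of microvillus transporters, was at -2.55 ± 0.67 (FDR = 0.0437) and no longer called with the calf as a block (FDR = 0.0623). The iron transporters *SLC11A2* (ENSBTAG00000032914, 1 of 2 identifiers with this symbol), which brings iron into the enterocyte, and *SLC40A1*, which releases it to the blood, were lower in the rumen by 2.46 and 2.60 on the log2 scale (FDR = 5.09e-04 and 0.00264). *EZR*, the microvillus linker ezrin, had 486, 332 and 450 CPM in the rumen and 784, 820 and 897 CPM in the jejunum and missed the fold threshold. *UGT1A1*, which conjugates bilirubin, was not called and had 97, 1173 and 38 CPM in the rumen, where animal 2 was far above the others.

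Products of secretory and enteroendocrine cells gave the lowest median of all lists, -5.72 (-4.53 without 6 members at 0 in a whole region), with 15 of 21 identifiers higher in the jejunum, 1 higher in the rumen and 5 not called. Goblet cell products were led by *FCGBP* (ENSBTAG00000005261), a mucus-binding protein, at 4, 0 and 1 CPM in the rumen and 2233, 2241 and 1680 CPM in the jejunum (difference -9.88 ± 0.59, FDR = 2.38e-04). *DMBT1*, which binds bacteria at mucosal surfaces, had 6, 1 and 4 CPM in the rumen and 5186, 4524 and 3017 CPM in the jejunum (difference -9.97 ± 0.51, FDR = 1.36e-04). The symbol *PLA2G2A*, an antibacterial phospholipase of Paneth cells, belongs to 2 identifiers that may share reads. ENSBTAG00000005759 was at 0 in the rumen and at 1334, 1548 and 1501 CPM in the jejunum (FDR = 5.25e-06), and ENSBTAG00000002700 differed by -9.94 ± 0.32 (FDR = 3.06e-05). *PIGR*, the receptor that carries IgA across the epithelium, was at 0 in the rumen and at 1288, 708 and 916 CPM in the jejunum at birth (FDR = 1.78e-05). The hormone cholecystokinin (*CCK*) was at 0 in the rumen and at 118, 126 and 113 CPM in the jejunum (FDR = 2.42e-05). Also at 0 in the rumen were ghrelin (*GHRL*, 10, 19 and 25 CPM, FDR = 8.73e-04) and the crypt marker *OLFM4* (137, 138 and 157 CPM, FDR = 2.16e-05). The exception was *FAM3D*, a secreted cytokine-like protein, at 75, 29 and 34 CPM in the rumen against 5, 7 and 5 CPM in the jejunum (2.70 ± 0.41, FDR = 0.00653). Not called were *AZGP1*, a secreted glycoprotein, at 2, 32 and 4 CPM in the rumen and 13, 16 and 13 CPM in the jejunum (without animal 2 called higher in the jejunum, -1.95 ± 0.27), and *CGREF1*, at 15, 5 and 12 CPM in the rumen and 8, 10 and 7 CPM in the jejunum.

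**Figure D2:**
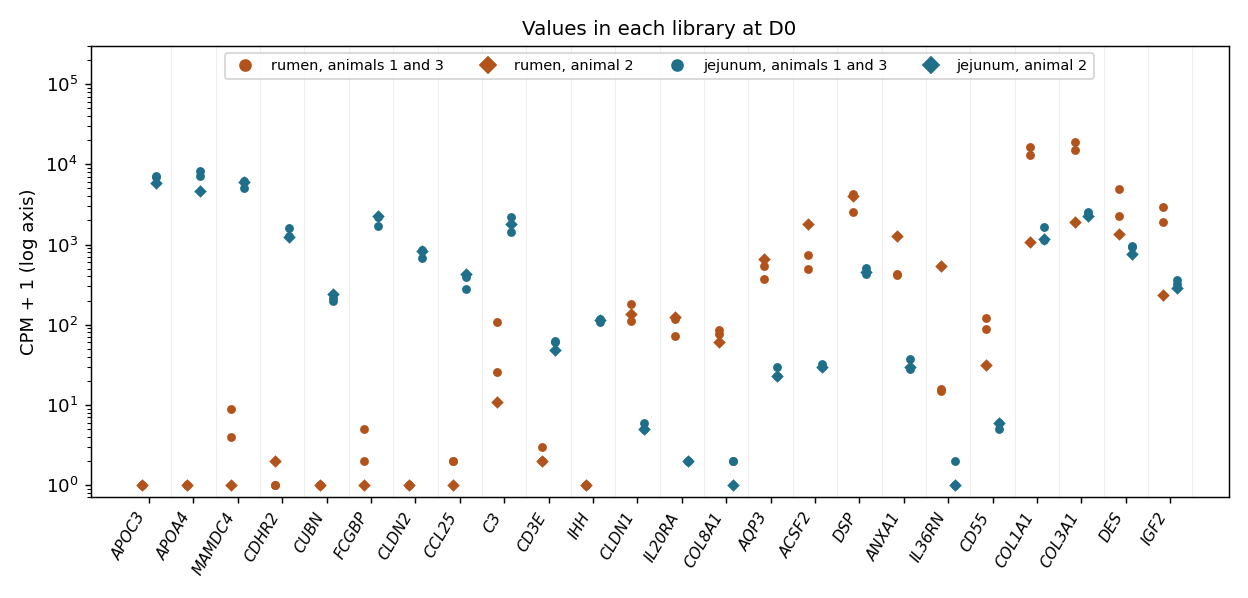
CPM + 1 on a log axis for 24 genes in each of the 6 libraries at D0, rumen in orange and jejunum in blue, with diamonds for animal 2. The 11 genes on the left are higher in all jejunum than in all rumen libraries, while for *COL1A1*, *COL3A1* and *IGF2* the rumen diamond lies below all jejunum libraries.

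Tight junction genes were divided by member rather than by region. Of 12 genes 5 were higher in the jejunum, 2 in the rumen and 5 not called, with a median of -0.72. The pore-forming claudin *CLDN2* (ENSBTAG00000005290) was at 0 in the rumen and at 853, 828 and 686 CPM in the jejunum (FDR = 7.12e-06), and *CLDN15*, a sodium pore of the gut, had 2, 0 and 4 CPM in the rumen and 117, 123 and 127 CPM in the jejunum (-5.64 ± 0.60, FDR = 0.00185). The barrier-forming *CLDN1* (ENSBTAG00000013148), the claudin of stratified epithelia, showed the opposite pattern, with 178, 134 and 110 CPM in the rumen and 5, 4 and 4 CPM in the jejunum (4.71 ± 0.24, FDR = 1.48e-04). *CLDN7* and *CLDN3* were higher in the jejunum at -3.13 ± 0.35 (FDR = 0.00234) and -3.04 ± 0.40 (FDR = 0.00408). The endothelial claudin *CLDN5* was higher in the rumen at 2.23 ± 0.48 (FDR = 0.0230). The junction adhesion gene *CXADR* was higher in the jejunum, at 36, 38 and 28 CPM in the rumen and 85, 79 and 89 CPM in the jejunum (-1.30 ± 0.18, FDR = 0.00506). Not called was *F11R*, at 195, 192 and 176 CPM in the rumen and 188, 170 and 190 CPM in the jejunum (difference 0.04 ± 0.14). The cytoplasmic linker *CGN* was not called either, at -0.69 ± 0.32 (FDR = 0.198).

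Genes of desmosomes and squamous epithelium were the list with the highest median with all libraries, 1.67. Without the rumen library of animal 2 their median was 1.47, below the 1.99 of collagens and fibrous matrix. Of 18 genes 10 were higher in the rumen, 3 in the jejunum and 5 not called, and the counts were the same without the rumen library of animal 2. *DSP* (ENSBTAG00000015106), the desmoplakin that anchors keratin to desmosomes, had 4327, 4053 and 2513 CPM in the rumen and 505, 450 and 422 CPM in the jejunum (2.95 ± 0.28, FDR = 0.00134). The desmosomal cadherin *DSC2* had 562, 1171 and 365 CPM in the rumen and 55, 77 and 77 CPM in the jejunum (3.16 ± 0.45, FDR = 0.00528). *DSG2*, the cadherin of simple epithelia, had 92, 36 and 66 CPM in the rumen and 249, 236 and 272 CPM in the jejunum and was higher in the jejunum (-2.04 ± 0.35, FDR = 0.0107). The plakophilin *PKP2* followed *DSG2* (-2.60 ± 0.28, FDR = 0.00191). All of these members had reads in both regions, at different levels. *PKP4*, at 233, 145 and 170 CPM in the rumen and 156, 146 and 156 CPM in the jejunum, was not called. *ANXA1*, an annexin abundant in squamous cells, reached 421, 1293 and 430 CPM in the rumen against 27, 29 and 36 CPM (4.30 ± 0.47, FDR = 0.00213). *KLF4*, a transcription factor of terminal epithelial differentiation, had 284, 325 and 246 CPM in the rumen and 43, 34 and 42 CPM in the jejunum (2.81 ± 0.18, FDR = 3.38e-04). *S100A14* (3.11 ± 0.37, FDR = 0.00287) and the basal cell cadherin *CDH3* (2.60 ± 0.21, FDR = 7.52e-04) were higher in the rumen as well. *CARD14*, a signalling scaffold known from keratinocytes, was nevertheless higher in the jejunum, at 4, 6 and 2 CPM in the rumen and 78, 70 and 54 CPM in the jejunum (-3.84 ± 0.37, FDR = 0.00134).

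At the base of the epithelium 3 of 13 identifiers of hemidesmosomes and basement membrane were higher in the rumen and 1 in the jejunum, with a median of -0.16. Without the rumen library of animal 2 these were 5 and 1, with a median of 0.33. *COL7A1*, the anchoring fibril collagen that ties stratified epithelium to the matrix, had 681, 65 and 357 CPM in the rumen and 15, 16 and 10 CPM in the jejunum (4.13 ± 0.86, FDR = 0.0211). The laminin receptor *BCAM* differed by 1.72 ± 0.16 (FDR = 0.00119). Integrin *ITGA3* went the other way, at -1.88 ± 0.33 (FDR = 0.0112). *DST* and the *LAMC1* identifier ENSBTAG00000022635 were not called, *DST* at 359, 86 and 512 CPM and *LAMC1* at 464, 53 and 430 CPM in the rumen, lowest in animal 2 for both.

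Matrix genes depended on the rumen library of animal 2. Of 37 genes of collagens and fibrous matrix, 6 were higher in the rumen and 1 in the jejunum, with a median of 1.27. Without that library 28 were higher in the rumen and 1 in the jejunum, with a median of 1.99. *COL1A1*, the main fibrillar collagen chain, had 16549, 1086 and 13064 CPM in the rumen and 1631, 1178 and 1143 CPM in the jejunum, so that animals 1 and 3 were above and animal 2 was below all jejunum libraries (2.25 ± 1.08, FDR = 0.207, without animal 2 3.50 ± 0.27, FDR = 0.00122). *COL3A1* had 15098, 1899 and 18862 CPM and 2500, 2272 and 2541 CPM (1.74 ± 0.92, FDR = 0.247, without animal 2 2.79 ± 0.26, FDR = 0.00201). *COL1A2* was alike (2.39 ± 0.88, FDR = 0.114, without animal 2 3.41 ± 0.18). Other matrix genes were high in all rumen libraries, animal 2 included. *COL8A1* (ENSBTAG00000013662), a short-chain collagen, had 84, 60 and 75 CPM in the rumen and 1, 0 and 1 CPM in the jejunum (5.53 ± 0.36, FDR = 3.30e-04). *THBS4*, a thrombospondin of muscle and tendon matrix, had 222, 64 and 38 CPM in the rumen and 3, 2 and 1 CPM in the jejunum (4.84 ± 0.69, FDR = 0.00542). The collagen-binding *FMOD* had 323, 106 and 202 CPM in the rumen and 26, 31 and 31 CPM in the jejunum (2.66 ± 0.41, FDR = 0.00722). The exception was *SMOC2*, a matricellular protein also known from intestinal crypts, higher in the jejunum at -3.46 ± 0.93 (FDR = 0.0473, with the block FDR = 0.0779).

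None of 18 smooth muscle genes was called in limma with all libraries (6 had an unadjusted p under 0.05, and 0 were called with the block). Without animal 2, 8 were higher in the rumen, which moved the median from 0.36 to 0.76. Desmin (*DES*), the intermediate filament of muscle, had 4942, 1360 and 2298 CPM in the rumen and 958, 752 and 938 CPM in the jejunum (1.50 ± 0.50, FDR = 0.0869, without animal 2 1.94 ± 0.38, FDR = 0.0142). Filamin *FLNA* had 5029, 696 and 2832 CPM in the rumen and 1475, 1358 and 1509 CPM in the jejunum (0.57 ± 0.73, FDR = 0.644, without animal 2 1.38 ± 0.29, FDR = 0.0181). Of 16 genes of enteric nerve and glia 1 was called in each direction, with a median of -0.66. Without animal 2 there were 5 higher in the rumen and 2 in the jejunum, with a median of 0.32. The nerve growth factor receptor *NGFR*, a marker of glia and neural crest cells, had 7, 0 and 10 CPM in the rumen and 75, 76 and 33 CPM in the jejunum (-3.71 ± 0.98, FDR = 0.0438, with the block FDR = 0.0945), and the neuronal adhesion gene *AMIGO1* had 44, 26 and 44 CPM in the rumen and 11, 12 and 16 CPM in the jejunum (1.46 ± 0.29, FDR = 0.0190, with the block FDR = 0.0519). *EDNRB* and *CPE* were not called, at -1.25 ± 0.73 and 1.25 ± 0.47. Of 17 endothelial genes, whose median was -0.15 and without animal 2 0.42, 1 was called in each direction. *CLDN5* was higher in the rumen. *MADCAM1*, the addressin that guides lymphocytes into the gut wall, was higher in the jejunum, at 0, 1 and 0 CPM in the rumen and 3, 2 and 3 CPM in the jejunum, (-1.53 ± 0.33, FDR = 0.0247, with the block FDR = 0.0879). The endothelial clotting factor *VWF* was not called, at 117, 88 and 198 CPM in the rumen and 138, 95 and 91 CPM in the jejunum (0.26 ± 0.35, FDR = 0.663). *GPR116* was not called (-0.34 ± 0.91).

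**Figure D3:**
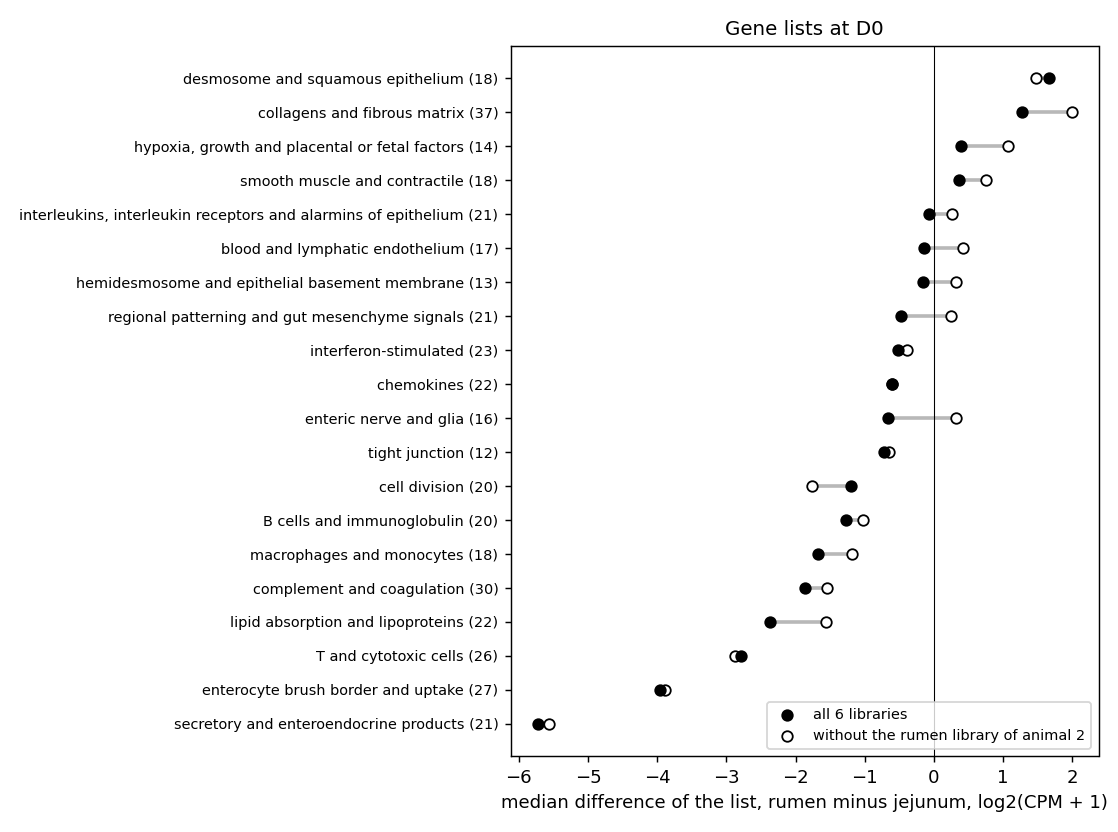
Median difference, rumen minus jejunum on the log2(CPM + 1) scale, of the 20 gene lists at D0 with all libraries (filled) and without the rumen library of animal 2 (open), with the number of identifiers tested in brackets. The lists of nerve and glia, endothelium, hemidesmosome, patterning and interleukins change the sign of their median, and the secretory, brush border and T cell lists lie lowest in both.

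T and cytotoxic cell genes were higher in the jejunum in 20 of 26 identifiers and in the rumen in none, with a median of -2.78 (-2.39 without 7 members at 0 in a whole region). *CD3E*, a chain of the T cell receptor complex, had 1, 1 and 2 CPM in the rumen and 59, 48 and 62 CPM in the jejunum (-4.64 ± 0.27, FDR = 2.23e-04). *CD7* was at 0 in the rumen and at 30, 24 and 29 CPM in the jejunum (FDR = 7.39e-05). *CD96* differed by -4.49 ± 0.36 (FDR = 7.08e-04). The granzyme identifier *GZMA* (ENSBTAG00000021958) was at 0 in the rumen and at 21, 17 and 23 CPM in the jejunum (FDR = 1.03e-04). *CCR9*, the receptor that homes T cells to the small intestine, was at 0 in the rumen and at 25, 14 and 19 CPM in the jejunum (FDR = 2.61e-04). *ITGAE*, the integrin of intraepithelial lymphocytes, differed by -2.05 ± 0.19 (FDR = 0.00109). Transcripts of these lymphocyte genes were thus present in the jejunum before feeding, while in the rumen *CCR9* and *GZMA* were at 0 and *ITGAE* had 17, 13 and 16 CPM. The *LAT* identifier ENSBTAG00000006731 was not called, at 28, 89 and 21 CPM in the rumen and 23, 20 and 24 CPM in the jejunum.

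Of the CD3 chains, *CD3D* and *CD3G* did not follow *CD3E*. *CD3D* had 1, 120 and 1 CPM in the rumen and 38, 31 and 46 CPM in the jejunum (-2.31 ± 1.66, FDR = 0.391, without animal 2 -4.28 ± 0.20, FDR = 3.33e-04). *CD3G* had 0, 68 and 0 CPM in the rumen and 17, 12 and 17 CPM in the jejunum, and was called higher in the jejunum without animal 2 (FDR = 3.50e-04). Rumen animal 2 was thus above all jejunum libraries for both, although *CD3E*, *CD2*, *CD247* and *TRAC* had 1, 0, 4 and 1 CPM in the same library. *CD3G* was chosen after its values were seen, as were the values of older rumen. In the 5 rumen libraries of D7 *CD3D* ranged from 16 to 38 CPM (median 23.0), while *CD3E* ranged from 0 to 3 CPM (median 1.00) and *CD2* from 0 to 1 CPM. The same split was present at D21, with *CD3D* at 26 to 83 CPM and *CD3E* at 1 to 5 CPM, and at D42, with 24 to 64 CPM and 1 to 2 CPM. In the jejunum of D7 all were present, with *CD3D* at 22 to 43 CPM and *CD3E* at 44 to 90 CPM. In the rumen, reads of these chains therefore did not come in the proportions found in the jejunum, and *CD3D* or *CD3G* alone did not mark the other T cell genes there.

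**Figure D4:**
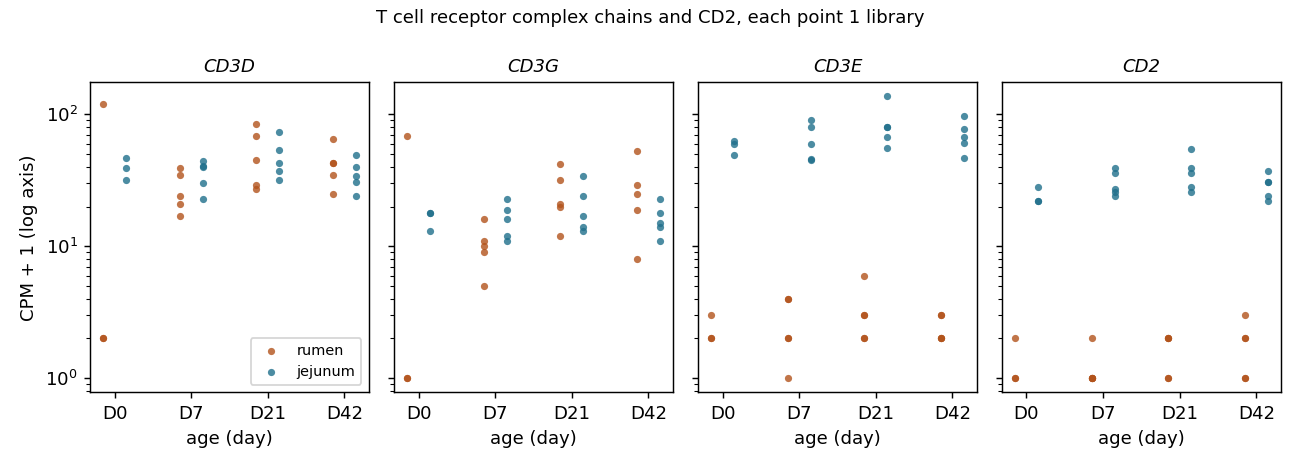
CPM + 1 on a log axis of *CD3D*, *CD3G*, *CD3E* and *CD2* in each rumen (orange) and jejunum (blue) library at D0, D7, D21 and D42. From D7 the rumen points of *CD3D* and *CD3G* overlap those of the jejunum, while those of *CD3E* and *CD2* stay near 1, and at D0 only animal 2 has rumen *CD3D* above 1 CPM.

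B cell and immunoglobulin genes were low in both regions at birth. Of 20 genes the jejunum was higher for 7 and the rumen for 1, with a median of -1.27, and only 2 of the jejunum calls were made with the block. *IGHM*, the heavy chain of IgM, had 1, 2 and 3 CPM in the rumen and 63, 12 and 20 CPM in the jejunum (-3.17 ± 0.65, FDR = 0.0194, with the block FDR = 0.0643). The B cell kinase *BTK* (-2.23 ± 0.55, FDR = 0.0360, with the block FDR = 0.0796), *IKZF3* (-2.16 ± 0.38, FDR = 0.0118) and *CD37* (-2.03 ± 0.30, FDR = 0.00594) were higher in the jejunum. The joining chain *IGJ*, at 5, 8 and 4 CPM in the rumen and 27, 5 and 20 CPM in the jejunum, was not called. The light chain-like *IGLL1* was not called either, at 1, 29 and 2 CPM in the rumen and 41, 4 and 12 CPM in the jejunum. *BLNK*, an adaptor of B cell receptor signalling, was higher in the rumen at 1.73 ± 0.45 (FDR = 0.0428), a call not made without animal 2 (1.51 ± 0.48).

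Of 18 macrophage genes 6 were called higher in the jejunum, none in the rumen, with a median of -1.68. With the block 3 were called higher in the jejunum. Over all genes with a symbol 22.4% were higher in the jejunum with all libraries. The myeloid transcription factor *SPI1* had 2, 3 and 8 CPM in the rumen and 27, 26 and 24 CPM in the jejunum (-2.48 ± 0.44, FDR = 0.0119). The fungal receptor *CLEC7A* had 0, 0 and 2 CPM in the rumen and 7, 5 and 6 CPM in the jejunum (-2.27 ± 0.48, FDR = 0.0221). The complement recognition chains *C1QA* (-2.11 ± 0.53, FDR = 0.0377) and *C1QC* (-2.03 ± 0.53, FDR = 0.0432) were called. Neither was called with the block (FDR = 0.0704 and 0.0619) or without rumen animal 2. Not called were *C1QB* (-1.80 ± 0.67, FDR = 0.117) and the growth factor receptor *CSF1R* (-1.75 ± 0.58, FDR = 0.0884). *B2M*, the light chain of MHC class I, was among the 10 named genes with most reads in the jejunum, at 2251, 1959 and 1989 CPM against 339, 602 and 509 CPM in the rumen (-2.13 ± 0.27, FDR = 0.00361).

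Of 30 complement and coagulation genes 16 were higher in the jejunum, 2 higher in the rumen and 12 not called, with a median of -1.87. Without animal 2 there were 16 and 6, where 474 and 294 of the 1776 genes with a symbol were called. *C9*, a pore-forming terminal component, was at 0 in the rumen and at 251, 361 and 398 CPM in the jejunum (FDR = 2.48e-05). *C5* had 1, 0 and 1 CPM in the rumen and 309, 283 and 190 CPM in the jejunum (-7.33 ± 0.37, FDR = 1.39e-04). The central component *C3* (ENSBTAG00000017280) had 25, 10 and 107 CPM in the rumen and 2182, 1826 and 1450 CPM in the jejunum (-5.84 ± 0.82, FDR = 0.00510). The activator *CFB* (-5.57 ± 0.68, FDR = 0.00308) and the regulator *CFI* (-6.86 ± 0.96, FDR = 0.00503) were higher in the jejunum. Coagulation factor *F7* was at 0 in the rumen and at 54, 65 and 51 CPM in the jejunum (FDR = 4.36e-05). The genes higher in the rumen both encode cell surface inhibitors of complement. *CD55* (ENSBTAG00000006984) had 121, 30 and 88 CPM in the rumen and 5, 5 and 4 CPM in the jejunum (3.62 ± 0.53, FDR = 0.00603). *CD59* had 23, 29 and 44 CPM in the rumen and 9, 10 and 10 CPM in the jejunum (1.58 ± 0.29, FDR = 0.0128). A further surface inhibitor, *CD46*, was higher in the jejunum (-1.22 ± 0.27, FDR = 0.0257), a call not made without animal 2 (-0.99 ± 0.18). The protease inhibitor *A2M*, at 1362, 601 and 2548 CPM in the rumen and 367, 256 and 376 CPM in the jejunum, missed the threshold (1.96 ± 0.55, FDR = 0.0524) and was called higher in the rumen with the block (FDR = 0.0488) or without animal 2 (2.50 ± 0.35, FDR = 0.00550). *SERPING1* was not called (-0.36 ± 0.72).

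Chemokine calls all lay in the jejunum, at 8 of 22 genes, with a median of -0.60. *CCL25* (ENSBTAG00000005581), the ligand of *CCR9* made by small intestinal epithelium, had 1, 0 and 1 CPM in the rumen and 276, 426 and 393 CPM in the jejunum (-7.82 ± 0.36, FDR = 9.43e-05). Ligand and receptor were thus both present in the jejunum and near 0 in the rumen. *CCL5* (-4.36 ± 0.26, FDR = 2.48e-04), *CXCL10* (-2.58 ± 0.39, FDR = 0.00641) and *CXCL16* (-1.75 ± 0.23, FDR = 0.00387) were lower in the rumen. *CXCL2*, a neutrophil attractant, was not called, with 86, 109 and 89 CPM in the rumen and 91, 89 and 104 CPM in the jejunum. *CXCL14*, at 196, 288 and 226 CPM in the rumen and 133, 104 and 136 CPM in the jejunum, passed the FDR but not the fold threshold (0.92 ± 0.21, FDR = 0.0302). Of 23 interferon-stimulated genes 4 were higher in the jejunum, namely the RNA sensor *IFIH1* (-2.50 ± 0.28, FDR = 0.00224), *XAF1* (-2.33 ± 0.42, FDR = 0.0122), *CMPK2* (-2.31 ± 0.48, FDR = 0.0200) and *IFI44L* (-1.86 ± 0.43, FDR = 0.0304, with the block FDR = 0.0558). *IFIT5* (0.26 ± 0.31, FDR = 0.611) was not called. The share of interferon-stimulated genes higher in the jejunum did not exceed the 22.4% of all genes with a symbol.

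Among 21 genes of interleukins, their receptors and epithelial alarmins 5 were higher in the rumen and 3 in the jejunum, with a median of -0.07 and without animal 2 of 0.27. *IL20RA* (ENSBTAG00000015638), the receptor chain through which IL-19, IL-20 and IL-24 act on keratinocytes, had the largest difference toward the rumen of all called genes with a symbol, at 117, 125 and 71 CPM against 1 CPM (5.68 ± 0.28, FDR = 1.28e-04). The receptor antagonists *IL1RN* and *IL36RN* of the interleukin-1 family were both higher in the rumen. *IL1RN* had 51, 305 and 26 CPM in the rumen and 2, 4 and 2 CPM in the jejunum (4.41 ± 0.91, FDR = 0.0205). *IL36RN* had 14, 537 and 15 CPM in the rumen and 0, 0 and 1 CPM in the jejunum (5.33 ± 1.46, FDR = 0.0498), close to the threshold and lost with the block (FDR = 0.0871). In both, the rumen library of animal 2 was several times above the others, and without it the differences were 3.40 ± 0.41 and 3.62 ± 0.37 and both were called. *IL1RAP*, the shared signalling chain of interleukin-1 receptors, differed by 1.60 ± 0.21 (FDR = 0.00423). *TLR4*, the receptor for bacterial lipopolysaccharide, had 29, 27 and 27 CPM in the rumen and 7, 8 and 7 CPM in the jejunum (1.78 ± 0.20, FDR = 0.00207). *IL22RA1*, the epithelial receptor of IL-22, was higher in the jejunum, at 0, 17 and 1 CPM in the rumen and 113, 74 and 74 CPM in the jejunum (-4.71 ± 1.07, FDR = 0.0283, with the block FDR = 0.0618), with the receptors *IL15RA* (-3.82 ± 0.36, FDR = 0.00123) and *IL1RL1* (-3.28 ± 0.62, FDR = 0.0149). *IL4R* and *IL17RC* were not called, at -0.32 ± 0.25 and 0.59 ± 0.33. Also not called were the inhibitory receptor *SIGIRR* (0.11 ± 0.25, FDR = 0.812) and *IL18BP*, which binds IL-18.

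No cell division gene of 20 was called in limma (5 had an unadjusted p under 0.05, and 0 were called with the block), with a median of -1.20. Without rumen animal 2, 13 were higher in the jejunum and the median was -1.77. Their summed level was 264, 492 and 113 CPM in the rumen of animals 1, 2 and 3 and 447, 509 and 419 CPM in the jejunum. *ECT2*, which is needed for cytokinesis, had 14, 37 and 10 CPM in the rumen and 37, 48 and 40 CPM in the jejunum (-1.20 ± 0.48, FDR = 0.142, without animal 2 -1.72 ± 0.20, FDR = 0.00332). The replication helicase subunit *MCM2* had 53, 62 and 38 CPM in the rumen and 58, 66 and 62 CPM in the jejunum (-0.30 ± 0.22, FDR = 0.406).

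Of 21 patterning and mesenchyme signals 4 were called higher in the jejunum, none in the rumen, with a median of -0.48. Over all genes with a symbol 22.4% were higher in the jejunum, with a median of -0.38, so the count for the jejunum is no excess. Without animal 2, 5 were called for the jejunum and 6 for the rumen, with a median of 0.25. *IHH* (ENSBTAG00000008452), the hedgehog ligand of the intestinal epithelium, was at 0 in all rumen libraries and at 106, 112 and 117 CPM in the jejunum (FDR = 2.45e-05). *PDX1*, a homeobox gene of the duodenum and pancreas, was at 0 and 28, 35 and 27 CPM (FDR = 7.64e-05), and *HAND1* at 0 and 5, 4 and 8 CPM (FDR = 0.00137). *ALDH1A2*, which makes retinoic acid, had 4, 0 and 9 CPM in the rumen and 37, 34 and 38 CPM in the jejunum (-3.34 ± 0.84, FDR = 0.0387, with the block FDR = 0.0595). *ID1* and *ID2*, inhibitors of differentiation factors, were not called, at 1.30 ± 0.37 and -1.26 ± 0.43.

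Hypoxia and growth genes were mixed, with 4 of 14 higher in the rumen, 2 in the jejunum and a median of 0.39. Without animal 2, 8 and 2 were called, with a median of 1.07. The vasodilator adrenomedullin (*ADM*) had 40, 34 and 67 CPM in the rumen and 10, 8 and 7 CPM in the jejunum (2.31 ± 0.32, FDR = 0.00462). *BNIP3* had 60, 240 and 113 CPM in the rumen and 22, 26 and 36 CPM in the jejunum (2.06 ± 0.52, FDR = 0.0395, with the block FDR = 0.0572). *NDRG1* differed by 1.51 ± 0.25 (FDR = 0.00869) and *HIF1A*, the oxygen-regulated transcription factor, by 1.10 ± 0.17 (FDR = 0.00725). All 4 are known from the response to low oxygen, but *VEGFA*, another member of this list, was not called with all libraries. *NDRG1* is also counted in the list of desmosomes and squamous epithelium. Whether oxygen differed was not tested. The 2 genes higher in the jejunum were *DLK2* (-2.57 ± 0.54, FDR = 0.0220) and the fetal RNA-binding protein *IGF2BP3*, at 52, 49 and 25 CPM in the rumen and 151, 158 and 157 CPM in the jejunum (-1.93 ± 0.30, FDR = 0.00770). The fetal growth factor *IGF2* had 1894, 235 and 2935 CPM in the rumen and 324, 290 and 363 CPM in the jejunum and was not called (1.75 ± 0.95, FDR = 0.258). It was called higher in the rumen without animal 2 (2.86 ± 0.23, FDR = 0.00136). Its receptor *IGF2R* was not called (-1.69 ± 0.63, FDR = 0.118).

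Outside the lists, 4 of the 10 named genes with the largest differences toward the rumen had other roles. *BST1* (ENSBTAG00000006156), an ectoenzyme that makes cyclic ADP-ribose, had 75, 19 and 49 CPM in the rumen and was at 0 in all jejunum libraries (FDR = 0.00126). *ACSF2* (ENSBTAG00000021301), an acyl-CoA synthetase that activates medium-chain fatty acids, had 488, 1779 and 749 CPM in the rumen and 31, 29 and 29 CPM in the jejunum (4.82 ± 0.47, FDR = 0.00143). *AQP3* (ENSBTAG00000008493), a water and glycerol channel of the basal membrane of stratified epithelia, had 546, 655 and 372 CPM in the rumen and 22, 22 and 29 CPM in the jejunum (4.35 ± 0.26, FDR = 2.44e-04). *MDFI* had 57, 77 and 36 CPM in the rumen and 2, 1 and 1 CPM in the jejunum (4.59 ± 0.36, FDR = 6.81e-04). Without a symbol, ENSBTAG00000004097 was at 3491, 6603 and 2483 CPM in the rumen and at 0 in the jejunum (FDR = 2.71e-05). ENSBTAG00000012638 was at 2955, 19287 and 1739 CPM in the rumen and no more than 1 CPM in the jejunum (FDR = 7.19e-04). In the jejunum ENSBTAG00000015170 had 5014, 5192 and 4706 CPM (FDR = 2.76e-06) and ENSBTAG00000016662 2104, 2097 and 2704 CPM (FDR = 5.25e-06), and both were at 0 in the rumen. Of the genes called higher in the jejunum 314 were at 0 in all rumen libraries, and of those called higher in the rumen 265 were at 0 in all jejunum libraries.

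The named genes with most reads in both regions included cytoskeletal genes that were not called. *ACTG1* had 1928, 2598 and 1383 CPM in the rumen and 1985, 2220 and 2022 CPM in the jejunum (-0.12 ± 0.31, FDR = 0.831). The ribosomal scaffold *GNB2L1* had 1901, 2125 and 1674 CPM in the rumen and 1589, 1664 and 1612 CPM in the jejunum (0.22 ± 0.22, FDR = 0.545). Of the 2 identifiers that carry the symbol *ACTB* and may share reads, ENSBTAG00000026199 differed by -0.53 ± 0.30 and ENSBTAG00000015441 by 1.55 ± 0.61, neither called (FDR = 0.277 and 0.135).

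At D7, after feeding, rumen and jejunum were compared again. In 5 against 5 libraries 4568 genes (32.2%) were called, 2496 (17.6%) toward the jejunum and 2072 (14.6%) toward the rumen, with more libraries per region than at D0. This is more than the 2853 called at D0 with all libraries, but fewer than the 4708 (33.2%) called at D0 without rumen animal 2. Of the D0 calls 1470 in the jejunum and 899 in the rumen were made again in the same direction, which is 81.4% and 85.9% of the D0 genes and 58.9% and 43.4% of the D7 genes. Only 5 genes passed from jejunum to rumen and 3 from rumen to jejunum. The difference between regions itself changed from D0 to D7 in 477 genes (3.37%), tested as an interaction over 16 libraries, with 266 moving toward the rumen (1.88%) and 211 toward the jejunum (1.49%). Without the rumen library of animal 2 these were 781 and 883 genes, of which 254 and 206 were called with all libraries.

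The 5 named genes whose regional difference moved most toward the rumen by D7 were *ALPL*, *MAMDC4*, *SLC7A8*, *IGSF23* and *LGMN*. *MAMDC4* had 6138, 5993 and 5085 CPM in the jejunum at D0 and a median of 132 CPM at D7 (range 50 to 367), so that the difference between regions changed by 5.37 ± 0.92 (FDR = 0.00322). The amino acid exchanger *SLC7A8* had 227, 246 and 257 CPM in the jejunum at D0 and a median of 10 CPM at D7, with at most 2 CPM in any rumen library (change 4.31 ± 0.46, FDR = 7.76e-05). *LGMN*, the lysosomal protease legumain, had 789, 770 and 1239 CPM in the jejunum and 54, 108 and 110 CPM in the rumen at D0 (-3.38 ± 0.36, FDR = 0.00187). It had medians of 69 and 103 CPM at D7 (change 3.86 ± 0.49, FDR = 3.33e-04). *LGMN* thus had no regional difference called at D7, while *MAMDC4* (-5.38 ± 0.48) and *SLC7A8* (-2.76 ± 0.25) were still called higher in the jejunum. *IGSF23*, a membrane protein of the immunoglobulin family, was listed at 0 in all rumen libraries of both ages and had 102, 78 and 139 CPM in the jejunum at D0 and a median of 5 CPM at D7 (interaction FDR = 7.76e-05). *ALPL* (ENSBTAG00000008951), the tissue-nonspecific alkaline phosphatase, had 12, 264 and 15 CPM in the rumen and 223, 234 and 212 CPM in the jejunum at D0, which was not called (-2.56 ± 1.17, FDR = 0.188). It was called higher in the jejunum without animal 2 (-3.96 ± 0.12, FDR = 1.20e-04). At D7 its medians were 92 CPM in the rumen and 7 CPM in the jejunum, and it was called higher in the rumen (3.64 ± 0.26), a change of 6.20 ± 0.98 (FDR = 0.00177). Of genes named above, *AMN* had a median of 151 CPM in the jejunum at D7 (interaction FDR = 0.00113). The difference of *AQP3* went from 4.35 ± 0.26 at D0 to 7.45 ± 0.29 at D7 (change 3.1 ± 0.47, FDR = 0.00143).

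The 5 named genes that moved most toward the jejunum were *ADA*, *BST1*, *IGLL1*, *IGJ* and *C4BPA*. *ADA* (ENSBTAG00000005280), the purine enzyme adenosine deaminase, was higher in the rumen at D0, at 123, 85 and 53 against 15, 18 and 24 CPM (2.08 ± 0.36, FDR = 0.0108, with the block FDR = 0.0550). At D7 it was higher in the jejunum (-4.83 ± 0.35), with medians of 30 CPM in the rumen and 1056 CPM in the jejunum (change -6.91 ± 0.58, FDR = 6.72e-06). *BST1* was listed at 0 in all jejunum libraries of D0 and had a median of 34 CPM there at D7, against 19 CPM in the rumen (interaction FDR = 5.85e-06). The antibody genes *IGJ* and *IGLL1*, not called at birth, were both called higher in the jejunum at D7. *IGJ* had a median of 506 CPM in the jejunum at D7 and 5 CPM in the rumen (change -5.12 ± 0.72, FDR = 7.99e-04). *IGLL1* had 680 CPM and 6 CPM (change -5.16 ± 1.17, FDR = 0.0199), and *IGHM* changed by -3.70 ± 0.69 (FDR = 0.00607). *C4BPA*, a fluid-phase inhibitor of complement, had 0, 0 and 1 CPM in the rumen and 3, 4 and 2 CPM in the jejunum at D0, and medians of 0 and 80 CPM at D7 (change -4.63 ± 0.35, FDR = 5.85e-06). The 10 genes with the largest change, 5 in each direction, were called without the rumen library of animal 2 as well. With the block 9 of them were called, and with a pseudocount of 0.1 8 were. Leaving out jejunum animal 2 or jejunum animal 3 of D0 left 9 called each time.

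**Figure D5:**
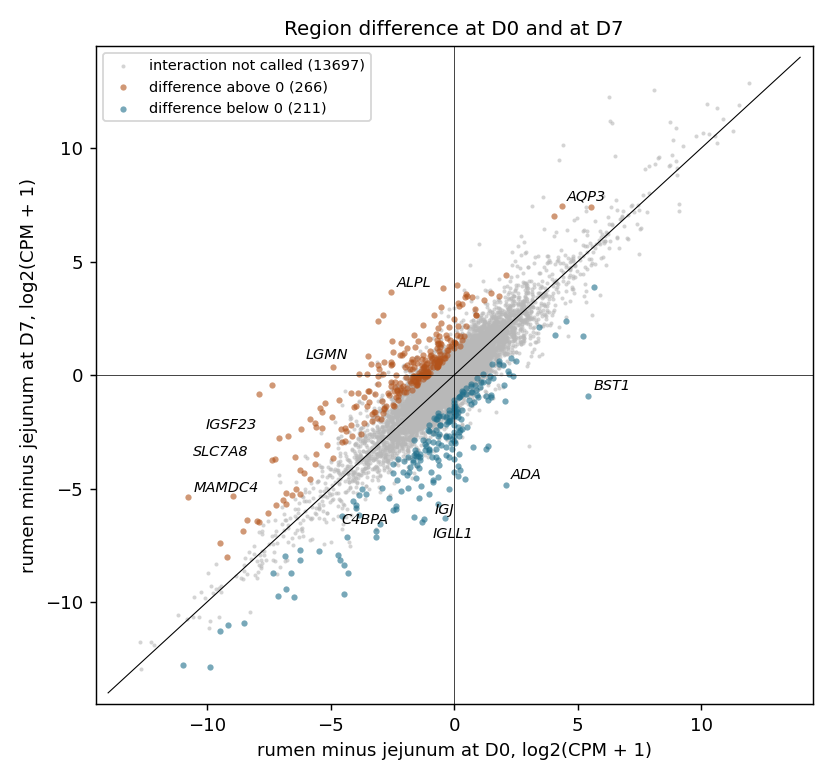
Rumen minus jejunum on the log2(CPM + 1) scale at D0 (x axis, 3 against 3 libraries) and at D7 (y axis, 5 against 5 libraries) for each gene, with genes whose difference changed toward the rumen in orange and toward the jejunum in blue. Most genes lie along the diagonal, while *ADA* and *ALPL* lie in quadrants of opposite sign.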

How the data were processed

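RNA from whole tissue was sequenced by the authors with 1 library per sample. Per the sources used here, reads were base-called with CASAVA 1.8, aligned to UMD3.1 with TopHat2 2.0.10, counted on Ensembl genes with HTSeq and divided by total mapped reads. The authors deposited a score per gene, namely CPM rounded to whole numbers, for 21510 genes in 71 files whose values sum to 970214 to 984626. Raw counts were not used here, so the depth behind each value is unknown and counting intervals are left out. The 17 files labelled distal jejunum equal the ileum files and were not used.

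Genes reaching 2 CPM in 9 or more of either region's 18 samples entered limma 3.58.1 (R 4.3.3, eBayes with trend) on log2(CPM + 1), fitted to the 6 D0 libraries with Benjamini-Hochberg adjustment over all 14174 genes. Calls needed FDR < 0.05 and fold change > 2. The change from D0 to D7 was an interaction over 16 libraries. Tested on simulated data, with counts drawn at 30 reads per CPM, the fit of 3 against 3 libraries recovered 81% of 200 genes changed 4-fold among 14174. It made 0 other calls, and 0 calls when none was changed. All simulated libraries were drawn around jejunum means with the same spread. A library that stands apart, such as that of rumen animal 2, was not simulated, so these rates may not hold for the real fit. Counts of genes per library were compared by two-sided exact permutation tests, with scipy 1.17.1. Tables and figures were made in Python 3.11.15 (pandas 2.3.3, numpy 2.4.6, matplotlib 3.10.9).

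Libraries with the same animal number were taken as the same calf. The study's naming of samples gives animal numbers for jejunum and ileum, and does not describe rumen samples. The deviations of paired libraries from their group means correlated across genes at 0.11, 0.05 and 0.08 at D0 and at -0.27 to -0.02 at D7. A fit with the calf as a block was the alternative, and its FDR stands beside results of D0 whose call it changed. It is not given beside the changes from D0 to D7.

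The 1776 symbols came from supplementary tables of the study, 1279 from a table of immune-related genes that was only held in part, and 497 more from genes the authors chose as changing with age in these jejunum samples. Of these symbols 27 belong to more than 1 identifier. No reference holding the genome build of the files was used, so no sequence or coordinate is given. The members, the 20 gene lists and the tests were chosen with earlier results of these data known.

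Named genes were, by rule, the 10 with a symbol with the largest difference in each direction among called genes whose values did not overlap, 2 without a symbol in each direction, the 4 called members with the largest difference and the 2 uncalled members with most CPM of each list, the 10 with the highest mean CPM per region, and the 5 in each direction with the largest interaction. Further list members and *CD3G* were named after their values were seen. Alternatives were median-ratio scaling, pseudocounts of 0.1 and 5, other filters, all ages and regions in 1 fit, robust eBayes, FDR alone, the block and leaving out each library. Some genes of the lists are not reported here by name.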

Additional observations from a re-analysis of the deposited data

Results flagged for a closer look

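Among the 129 genes chosen by the rule for named genes, the regional difference of 23 changed between D0 and D7 in limma's interaction test. Values are rumen minus jejunum at D7 less that at D0 on the log2(CPM + 1) scale. Of the 23, 10 met the rule through their call in this same test. Their number therefore cannot be set against the 3.37% called over all genes tested. Toward the rumen moved *ALPL* (6.20), *MAMDC4* (5.37), *SLC7A8* (4.31), *IGSF23* (4.02), *LGMN* (3.86), *AQP3* (3.1), the *LAMC1* identifier ENSBTAG00000022635 (2.95), *AMN* (2.06), *F7* (1.27), *IGF2BP3* (1.20), *IHH* (1.15) and *PKP4* (1.03, without rumen animal 2 of D0 0.88 and not called). Toward the jejunum moved *ADA* (-6.91), *BST1* (-6.32), *IGLL1* (-5.16), *IGJ* (-5.12), *C4BPA* (-4.63), *CGREF1* (-4.39), *IGHM* (-3.70), *MADCAM1* (-1.93), *IL20RA* (-1.82), *ADM* (-1.57) and *C5* (-1.39). For *IGSF23*, *AMN*, *F7*, *IHH* and *BST1* a whole region was listed at 0 CPM at D0, so the size of their change depends on the pseudocount. Of the other genes the text describes, *MME* (3.61), *ACE* (3.01), *SCARB1* (2.27), *NDRG1* (2.12), *GHRL* (1.95) and *CCK* (1.40) also moved toward the rumen, and *PIGR* (-2.99) and *PPARG* (-2.33) toward the jejunum, with *GHRL*, *CCK* and *PIGR* at 0 CPM in the rumen at D0 as well.

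*CGREF1*, which encodes a secreted growth regulator, was not called at D0 and differed by -4.17 ± 0.34 at D7. *IL20RA* was still called higher in the rumen at D7 (3.86 ± 0.21), and *ADM* was not (0.74 ± 0.18). The other identifier of *LAMC1*, ENSBTAG00000011966, was not called in the interaction test (1.42 ± 0.88, FDR = 0.530).

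For 3 of these genes a single library at D7 had a large gap to the others of its group of 5, relative to the range of the group. *ADA* had 83 CPM in 1 rumen library, above a median of 30 CPM. *MAMDC4* had 367 CPM in 1 jejunum library, above a median of 132 CPM. *SLC7A8* had 0 CPM in 1 rumen library, below a median of 1 CPM, which is a single step of the rounded values. By chance about 1 in 20 groups is marked in this way.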

How the results depend on the processing

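With all ages and regions in 1 fit 1710 genes were higher in the rumen at D0. Leaving out 1 library gave 595 to 2461 genes higher in the rumen and 1105 to 2247 higher in the jejunum, with fewer samples in each fit. The highest counts came without rumen animal 2, and the lowest without a jejunum library: 595 and 1105 without animal 1, 595 and 1139 without animal 2, and 595 and 1142 without animal 3. For the change from D0 to D7, leaving out 1 library gave 168 to 781 genes toward the rumen and 128 to 883 toward the jejunum, and the replicate block gave 141 and 115. The highest again came without rumen animal 2 of D0, and fewer toward the rumen were called without jejunum animal 1 (168) or 3 (169) of D0 and toward the jejunum without jejunum animal 3 of D0 (128). At D0 the block gave 739 genes higher in the rumen and 1371 higher in the jejunum, of which 725 and 1364 were called without it, and A2M was the only named gene it added. The difference in detected genes, rumen minus jejunum, was -225 per library with all libraries and 202 without rumen animal 2, when both remaining rumen libraries were above all jejunum libraries. Of 83 named genes called at D0, 83 were still called with all samples in 1 fit, 81 with median-ratio scaling, 79 without a filter, 74 and 78 with pseudocounts of 0.1 and 5, 68 with the block, and 60 to 81 when a library was left out. No named gene called at D0, and none of the 10 with the largest change from D0 to D7, changed sign in these alternatives. The causes were not tested. Values under about 5 CPM rest on few steps of 1 CPM, and without raw counts their counting error is unknown.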

Other observations

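Some genes of rumen animal 2 at D0, chosen after their values were seen, lay nearer to the rumen libraries of later ages than to rumen animals 1 and 3 of D0. *IL36RN*, the antagonist of the IL-36 receptor, had 537 CPM in this library against 14 and 15 CPM in the others, and ranged from 57 to 155 CPM at D7, 70 to 276 CPM at D21 and 136 to 234 CPM at D42. *CLDN4*, a barrier claudin, had 565 CPM against 77 and 26 CPM, and ranged from 258 to 407 CPM at D7 and from 241 to 347 CPM at D42. The galectin *LGALS4* had 313 CPM against 13 and 14 CPM, with 32 to 110 CPM at D7 and 64 to 185 CPM at D42. *UGT1A1* had 1173 CPM against 97 and 38 CPM, with 535 to 845 CPM at D7 and 555 to 1171 CPM at D42. Each value of animal 2 was above the whole range of the rumen libraries at D7, D21 or D42 quoted for that gene.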
